A study of Andrographis paniculata with 12 samples.

Results

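The genes described here come from a leaf transcriptome of the medicinal plant Andrographis paniculata (family Acanthaceae) and are those whose best Swiss-Prot hit names an enzyme of the shikimate pathway or of the synthesis of phenylalanine, tyrosine and tryptophan. They were chosen by words in that name (DAHP synthase, written phospho-2-dehydro-3-deoxyheptonate aldolase, then dehydroquinate, shikimate kinase, shikimate dehydrogenase, 3-phosphoshikimate, chorismate, anthranilate, indole-3-glycerol phosphate, tryptophan synthase, arogenate and prephenate), leaving out hydroxycinnamoyl and caffeoyl names, and had to reach a level of 1 in the leaves of some time. The words found 49 of 32064 assembled genes, and all 49 passed the level filter, the lowest with 1.30 as its highest level (TR54987|c0_g1). Leaves were taken after 0, 12, 24 and 48 h of exposure to MeJA, which is methyl jasmonate, a volatile form of the wound hormone jasmonic acid, with 3 labelled biological replicates at each of the 4 times. All leaves are from the MeJA experiment, no untreated leaves of 12, 24 or 48 h were analysed here, and the labels give neither the dose, the number of plants nor the clock time. If treatment began at 1 clock time, leaves of 12 h differ from the rest in time of day as well, and the 2 cannot be told apart.

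The shikimate pathway is the plastid route by which plants turn phosphoenolpyruvate (PEP) and erythrose 4-phosphate into chorismate. From chorismate, chorismate mutase opens the branch to phenylalanine and tyrosine, anthranilate synthase the branch to tryptophan, and isochorismate synthase the branch to phylloquinone and, in many plants, salicylic acid. Phenylalanine feeds lignin, flavonoids and other phenolics, tyrosine feeds tocopherols and plastoquinone, and tryptophan feeds auxin and indole defence compounds, so leaves draw on these amino acids for far more than protein. Jasmonates are known in other plants to raise transcripts of several of these enzymes.

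Each level below is the authors' deposited mean of a time, with no error or replicate value behind it, and no test was possible. The unit is not given in the sources used here, nor whether levels are per transcript length, so levels of different genes are listed side by side without being ranked. Without a test, higher and lower mean a 2-fold step or larger, that is, 1 unit on the scale of log2(level + 1). Names state similarity to a database protein, and 1 plant gene can be split over several assembled genes. The leaf label was checked on 38 hits to Rubisco small chain, Rubisco activase and chlorophyll a-b binding proteins, whose levels summed to 64604, 3809, 18701 and 23318 at 0, 12, 24 and 48 h. In the same order, 21 flower organ hits summed to 273, 241, 299.8 and 275, 9 root hits to 83.6, 94.5, 88.1 and 103, 18 phloem and xylem hits to 52.9, 65.4, 73.1 and 59.5, and 2 guard cell hits to 4.81, 6.92, 10.8 and 9.41. Of the leaf hits, 0, 5, 2 and 2 were listed at 0 at these times, and of the phloem and xylem hits 1, 0, 1 and 1. No flower, root or guard cell hit was listed at 0. The part of these marker levels in the results below was not tested, and in whole leaves more cells of a type and more RNA per cell cannot be told apart.

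Single members of several enzyme families were far higher at the later times, while most other hits to the same enzymes stayed under 2-fold or were lower. A tryptophan synthase beta chain hit, a DAHP synthase hit and an arogenate dehydratase hit had the largest positive differences among members with a mean level of at least 10. At 12 h against 0 h, 9 of the 49 members were higher and 8 lower, where 15.0% of the 29399 genes tested were higher and 17.7% lower. At 24 h against 0 h, 9 were higher and 6 lower, beside 13.4% and 16.9% of all genes. At 48 h against 0 h, 13 were higher and 8 lower, beside 12.2% and 19.6%. Both shares at 12 h were therefore near the background, and the share of members higher at 48 h was 26.5%. The shares at 12 h differed by level. Of the 30 members that reached a level of 10 at some time, 8 were higher and 0 lower. Beside them, 18.1% of all such genes were higher and 20.2% lower. Of the 19 members under 10 at all 4 times, 1 was higher and 8 lower, beside 12.2% and 15.5% of all such genes. This split uses the same levels that are compared. A member low at 0 h can enter the first group through its later levels, as TR21161|c85_g3 did (0.672 at 0 h and 782 at 12 h). The shares in the groups may therefore follow in part from the split. The median log2 difference of the members was 0.27, 0.20 and 0.15 at 12, 24 and 48 h, where that of all genes tested was 0.063, 0.0091 and -0.085. These 3 comparisons use the same leaves of 0 h.

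**Figure D1:**
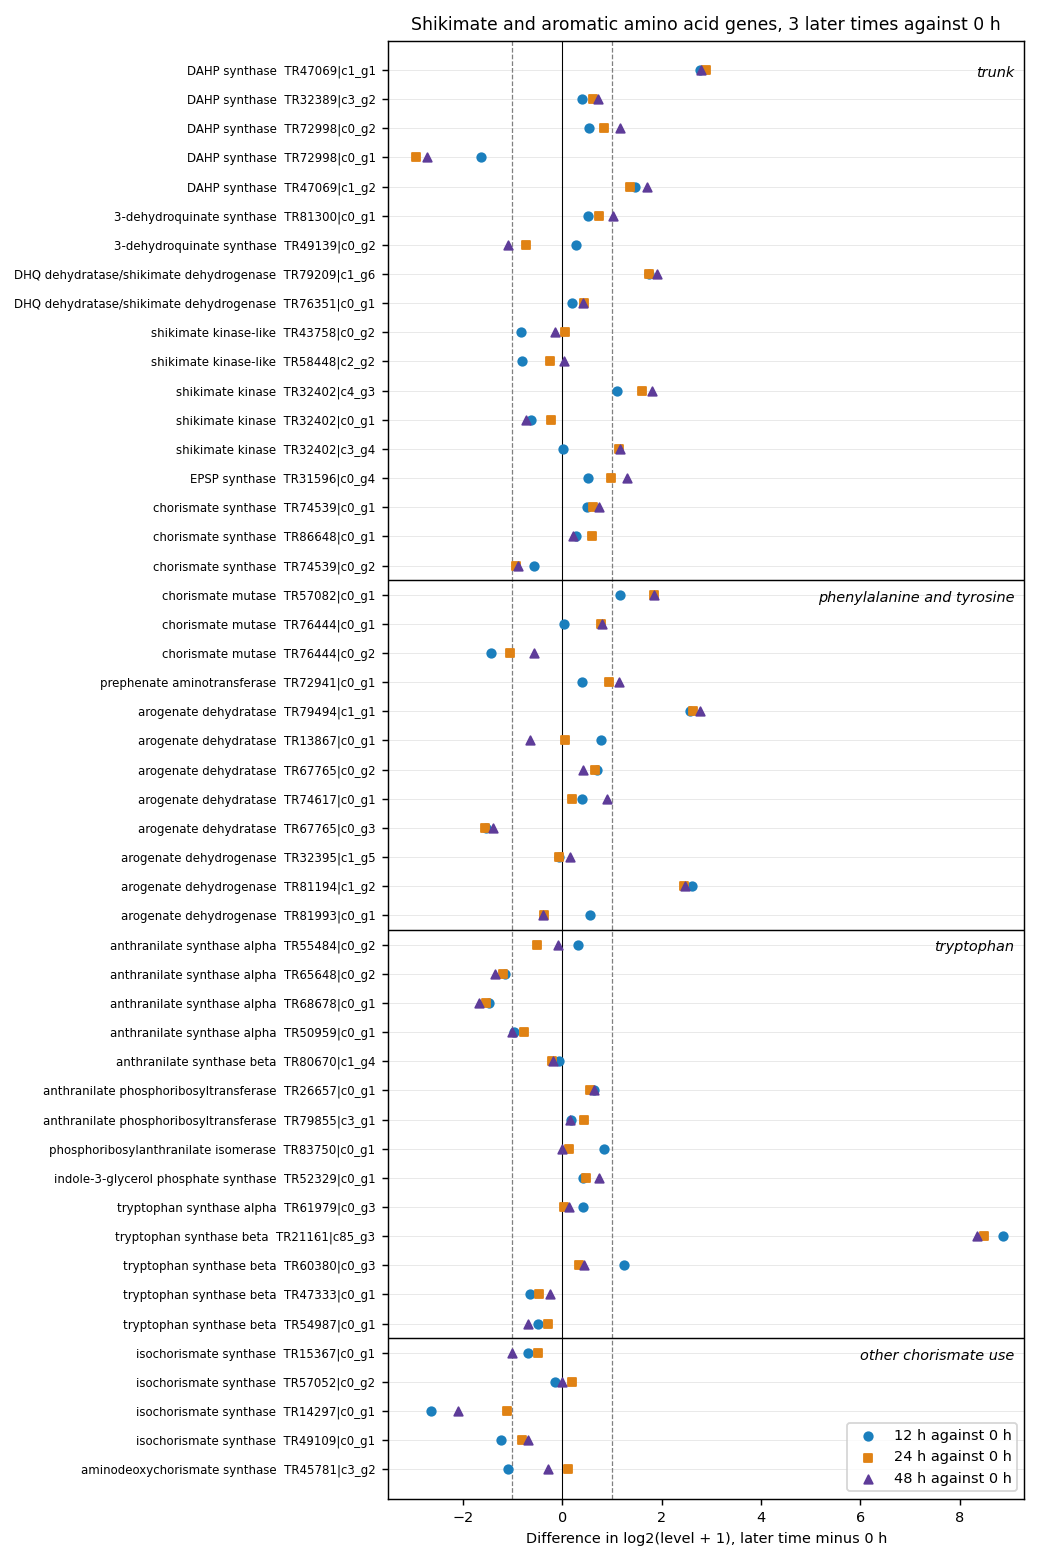
Each row is 1 of the 49 assembled genes, grouped by enzyme and ordered by mean level within it, and the x axis is the difference in log2(level + 1) at 12 h (circles), 24 h (squares) and 48 h (triangles) against 0 h. Dashed lines mark 2-fold. The tryptophan synthase beta hit TR21161|c85_g3 lies between 8.34 and 8.87, and the other members lie between -2.94 and 2.90.

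At the entry of the pathway, 2 of 5 hits, both on 1 assembly component, were higher at all later times. Of all 49 members, 8 (16.3%) were higher at all 3 later times and 5 (10.2%) lower, beside 6.27% and 9.69% of all genes tested. DAHP synthase joins phosphoenolpyruvate to erythrose 4-phosphate and sets how much carbon enters. TR47069|c1_g1, closest to potato AROG_SOLTU (SHKB), was at 61.6, 429, 466 and 432 at 0, 12, 24 and 48 h. Its level was 6.96, 7.56 and 7.01 times that of 0 h, so almost all of the difference was already there at the first time sampled. A second piece on its assembly component, TR47069|c1_g2, was at 0.266, 2.49, 2.27 and 3.11 and was counted as higher at each of these times. The hit to potato SHKA, TR32389|c3_g2, was at 47.4, 62.5, 73.5 and 78.7, and it did not reach 2-fold at any time. TR72998|c0_g2, closest to Arabidopsis DHS2, was at 28.7, 42.2, 52.6 and 66.0 and passed 2-fold at 48 h alone, with a log2 difference of 1.17. Its neighbour on the component, TR72998|c0_g1, which has no Pfam domain in the authors' table, went the other way and was at 7.99, 1.89, 0.171 and 0.370. The 5 hits thus held 1 at a plateau from 12 h, a low piece on its component that was also higher at all 3 later times, 2 whose level was higher at each successive time, and another low piece that was under 1 from 24 h on.

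The trunk steps from dehydroquinate to chorismate each had at least 1 hit whose level was higher at every successive time, with smaller differences than the leading DAHP synthase hit. The plant-type 3-dehydroquinate synthase hit TR81300|c0_g1, which forms the first ring, was at 51.9, 74.8, 87.6 and 107 and just passed 2-fold at 48 h (log2 difference 1.03, and 0.92 with the columns scaled to 1 total). The other hit of that name, TR49139|c0_g2, has an archaeal form of the enzyme as best Swiss-Prot hit, although its best TrEMBL hit is a plant protein. It was at 7.55, 9.33, 4.19 and 3.0, lower by 2-fold at 48 h. The 2 hits to the bifunctional 3-dehydroquinate dehydratase/shikimate dehydrogenase, which makes shikimate, behaved differently from each other. TR79209|c1_g6 was at 6.90, 25.5, 25.5 and 28.5, with log2 differences of 1.74, 1.75 and 1.90 at 12, 24 and 48 h against 0 h. TR76351|c0_g1 was at 10.2, 11.8, 14.2 and 14.0, with log2 differences of at most 0.44.

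Shikimate kinase, which phosphorylates shikimate, had 3 hits to the same tomato entry on different components of 1 assembly cluster. TR32402|c4_g3 was at 4.91, 11.7, 17.0 and 19.8 and was higher at all 3 later times, with log2 differences of 1.10, 1.61 and 1.81 (at 12 h 0.96, and so not counted, with the columns scaled to 1 total). The piece TR32402|c3_g4 was at 0.420, 0.434, 2.16 and 2.17, and passed 2-fold from 24 h on. The piece TR32402|c0_g1 was at 7.26, 4.33, 6.08 and 4.01 and did not reach 2-fold. The 2 hits named as probable inactive kinase-like proteins, which in Arabidopsis are not shikimate kinases despite their fold, were lowest at 12 h. SKL1 (TR43758|c0_g2) was at 29.2, 16.1, 30.4 and 26.3, and SKL2 (TR58448|c2_g2) at 24.4, 13.5, 20.5 and 24.9. Neither was past 2-fold, with log2 differences of -0.82 and -0.80 at 12 h.

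EPSP synthase (TR31596|c0_g4), the target of the herbicide glyphosate, was represented by 1 hit. It was at 20.0, 29.3, 40.8 and 50.6, and its log2 difference from 0 h was 0.53, 0.99 and 1.30 at 12, 24 and 48 h, so that it was counted as higher at 48 h alone (also at 24 h, at 1.02, with a pseudocount of 0.1). Chorismate synthase, which completes the trunk, did not reach 2-fold in any of its 3 hits. Its hit TR74539|c0_g1 was at 37.5, 53.7, 57.9 and 63.2, and TR86648|c0_g1 at 6.40, 7.93, 10.3 and 7.60. The low second piece of the first, TR74539|c0_g2, was at 3.20, 1.82, 1.20 and 1.28. Of the 18 trunk members, 4, 5 and 8 were higher at 12, 24 and 48 h, and 1, 1 and 2 were lower, with medians of 0.33, 0.62 and 0.73. The 18 include the 2 kinase-like hits SKL1 and SKL2, which in Arabidopsis are not shikimate kinases and here did not pass 2-fold. Over all genes tested, 15.0%, 13.4% and 12.2% were higher and 17.7%, 16.9% and 19.6% lower, beside 22.2%, 27.8% and 44.4% and then 5.56%, 5.56% and 11.1% of the trunk members.

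**Figure D2:**
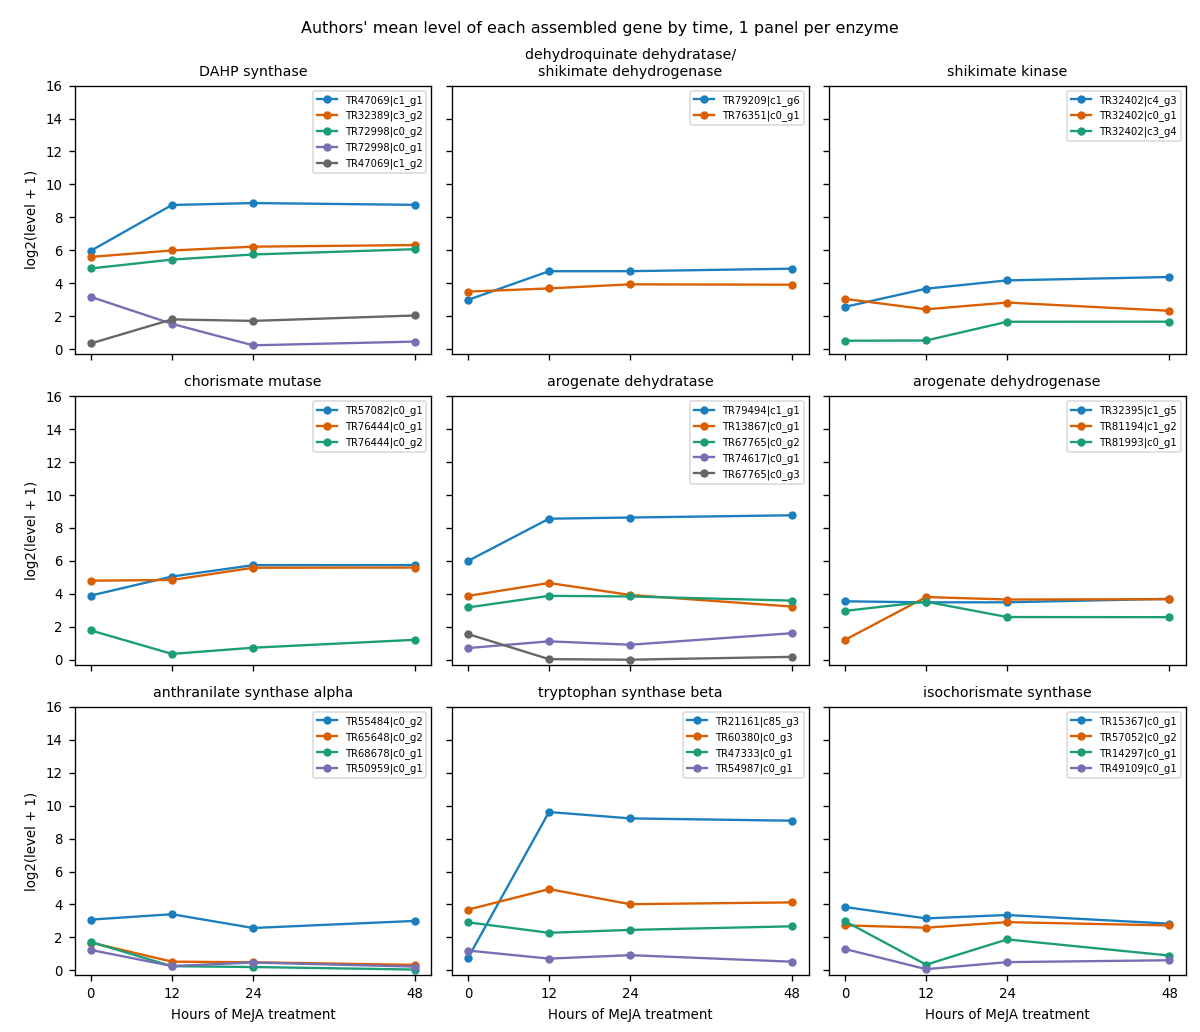
Levels of every member of 9 enzymes, as log2(level + 1) of the authors' mean on the y axis against hours of MeJA treatment on the x axis. Each line is 1 assembled gene. In the DAHP synthase, arogenate dehydratase and tryptophan synthase beta panels the line that ends highest, at 432, 436 and 542, had most of its climb between 0 and 12 h.

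On the branch to phenylalanine and tyrosine, 1 arogenate dehydratase hit, the plastid chorismate mutase and 1 arogenate dehydrogenase hit were higher at all later times. Over all genes tested, 6.27% were higher at all 3 later times. Chorismate mutase turns chorismate into prephenate. The hit to Arabidopsis CM1 (TR57082|c0_g1), the plastid form, was at 13.9, 32.1, 52.4 and 52.7, with log2 differences of 1.16, 1.85 and 1.85 at 12, 24 and 48 h. CM2 (TR76444|c0_g1), the cytosolic form in Arabidopsis, was at 26.8, 27.6, 46.9 and 47.4 and stayed under 2-fold, with its climb between 12 and 24 h. A low piece on its component, TR76444|c0_g2, was at 2.44, 0.276, 0.655 and 1.31. Prephenate aminotransferase (TR72941|c0_g1), which makes arogenate, was at 15.6, 21.0, 31.1 and 35.7 and was higher at 48 h by 1.14 on the log2 scale.

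Arogenate dehydratase makes phenylalanine from arogenate, and its 5 hits had different time courses. The hit to Arabidopsis ADT6, TR79494|c1_g1, was at 62.7, 377, 396 and 436, which is 6.01, 6.32 and 6.95 times its level at 0 h. The hit to ADT1, TR13867|c0_g1, was at 13.7, 24.2, 14.3 and 8.35, highest at 12 h and lowest at 48 h, without reaching 2-fold against 0 h. The hit to ADT2, TR67765|c0_g2, was at 8.02, 13.7, 13.3 and 11.0. The 2 remaining hits were at levels of at most 2.05. One of them, TR67765|c0_g3, on the component of the ADT2 hit and without a Pfam domain, was at 1.95, 0.0233, 0 and 0.128, and it was the only member listed at 0 at any time.

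Arogenate dehydrogenase makes tyrosine from arogenate and also had hits with different time courses. TR81194|c1_g2, the hit to Arabidopsis arogenate dehydrogenase 1, was at 1.30, 13.0, 11.6 and 11.8, with log2 differences of 2.60, 2.45 and 2.47. It was named after its values were seen, since its mean level is under 10. The 2 hits to arogenate dehydrogenase 2 stayed under 2-fold. TR32395|c1_g5 was at 10.7, 10.2, 10.2 and 12.0, and TR81993|c0_g1 at 6.80, 10.5, 5.02 and 4.99. Of the 12 members of this branch, 3, 3 and 4 were higher at 12, 24 and 48 h, and 2, 2 and 1 were lower. These are 25%, 25% and 33.3% higher, beside 15.0%, 13.4% and 12.2% of all genes, and 16.7%, 16.7% and 8.33% lower, beside 17.7%, 16.9% and 19.6%.

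The tryptophan branch held the largest positive difference of all members, at its last step, while the enzymes before it stayed under 2-fold or were lower. Tryptophan synthase is a complex whose alpha chain releases indole and whose beta chain joins it to serine. The beta chain hit TR21161|c85_g3, closest to Arabidopsis TSB2, was at 0.672, 782, 599 and 542 at 0, 12, 24 and 48 h, with log2 differences of 8.87, 8.49 and 8.34. It was under 1 before treatment and at 542 or more at every later time. The second beta chain hit, TR60380|c0_g3, closest to the beta chain of Camptotheca, was at 11.8, 29.5, 15.2 and 16.5, and it was higher at 12 h alone (log2 difference 1.25). The other 2 beta hits, TR47333|c0_g1 and TR54987|c0_g1, are closest to the bacterial trpB2 entry of Aquifex although their best TrEMBL hits are plant proteins, and both were at their highest at 0 h, at 6.55 and 1.30. The single alpha chain hit, TR61979|c0_g3, was at 19.0, 25.6, 19.7 and 20.9, a log2 difference of 0.41 at 12 h. Of the 4 beta chain hits, TR21161|c85_g3 alone thus differed by far more than the alpha chain hit at all 3 later times.

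Anthranilate synthase, the committed step to tryptophan, was not higher in any of its 5 hits. Its alpha subunit carries the catalytic site and is inhibited by tryptophan. The hit to Arabidopsis ASA2, TR55484|c0_g2, was at 7.45, 9.61, 4.94 and 7.00. The 3 hits to ASA1 had levels of at most 0.442 at any later time, against 2.22, 2.31 and 1.36 at 0 h. In Arabidopsis ASA1 is the form that responds to wounding and pathogens. Of these 3, TR65648|c0_g2 and TR68678|c0_g1 were counted as lower at 12, 24 and 48 h, and TR50959|c0_g1 at 48 h. The beta subunit (TR80670|c1_g4), which supplies ammonia from glutamine, was at 33.4, 32.1, 28.7 and 29.2.

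The steps between anthranilate and indole also stayed under 2-fold. Anthranilate phosphoribosyltransferase (TR26657|c0_g1) was at 15.5, 24.7, 23.2 and 24.9, and a second hit, to the Aquifex entry (TR79855|c3_g1), at 17.3, 19.7, 24.0 and 19.5. The best TrEMBL hit of this second one is a plant protein. Phosphoribosylanthranilate isomerase (TR83750|c0_g1) was at 7.15, 13.6, 7.94 and 7.08, with its highest level at 12 h and a log2 difference there of 0.84. Indole-3-glycerol phosphate synthase (TR52329|c0_g1), which closes the indole ring, was at 19.4, 26.4, 27.3 and 33.4. Of the 14 tryptophan branch members, 2, 1 and 1 were higher at 12, 24 and 48 h, and 2, 2 and 3 were lower. Their shares were 14.3%, 7.14% and 7.14% higher, beside 15.0%, 13.4% and 12.2% of all genes, and 14.3%, 14.3% and 21.4% lower, beside 17.7%, 16.9% and 19.6%, so those at 12 h and the lower ones at 24 and 48 h were near the background.

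Of the 5 members that draw chorismate to other products, 3, 1 and 2 were lower at 12, 24 and 48 h, where 17.7%, 16.9% and 19.6% of all genes were, and none was higher, where 15.0%, 13.4% and 12.2% of all genes were. The 4 isochorismate synthase hits are all closest to the Catharanthus enzyme. TR15367|c0_g1 was at 13.4, 7.89, 9.28 and 6.13, and was counted as lower at 48 h at -1.01 on the log2 scale (-0.93, and so not counted, with median-of-ratios scaling). TR14297|c0_g1 was at 6.90, 0.269, 2.68 and 0.862 and was lower at all 3 later times. TR49109|c0_g1 was at 1.46, 0.0500, 0.412 and 0.528 and was lower at 12 h, while TR57052|c0_g2 was at 5.63, 5.02, 6.60 and 5.61. The 4 had their lowest or next to lowest levels at 12 h. Aminodeoxychorismate synthase (TR45781|c3_g2), which leads to the p-aminobenzoate part of folate, was at 6.07, 2.30, 6.64 and 4.84, lower at 12 h by 1.10 on the log2 scale and near its level of 0 h at 24 h.

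Directly between treated times, few members differed. At 24 h against 12 h, 3 members were higher and 1 lower, where 10.6% of all genes tested were higher and 11.1% lower. The 3 were the shikimate kinase piece TR32402|c3_g4, the isochorismate synthase hit TR14297|c0_g1 and aminodeoxychorismate synthase, with log2 differences of 1.14, 1.54 and 1.21, and the lower one was the DAHP synthase piece TR72998|c0_g1 at -1.31. At 48 h against 24 h none of the 49 passed 2-fold in either direction, where 2.36% of all genes were higher and 4.50% lower. With a pseudocount of 0.1, 2 were higher and 1 lower in that comparison.

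The highest level fell at 0, 12, 24 and 48 h in 14, 10, 7 and 18 of the 49 members. These are 28.6%, 20.4%, 14.3% and 36.7% of the members, beside 32.9%, 32.2%, 19.4% and 15.5% of all genes tested. A level that was higher at each successive time was seen in 13 members, or 26.5%, against 6.31% of all genes. Of these 13, 8 belonged to the trunk, 4 to the phenylalanine and tyrosine branch and 1 to the tryptophan branch. These are descriptions of 4 means, and the spread between leaves is not known.

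A Pfam domain was given for 41 members, of which 9, 8 and 12 were higher at 12, 24 and 48 h and 4, 2 and 5 lower. Among the 8 with none, 0, 1 and 1 were higher and 4, 4 and 3 lower. Over all genes tested, with or without a domain, the shares were 15.0%, 13.4% and 12.2% higher and 17.7%, 16.9% and 19.6% lower. On 5 components 2 members shared a name, 1 listed at a lower level than the other. On 4 of the 5 the lower piece was below its level of 0 h at every later time while its neighbour was above it, and on the fifth, TR47069|c1, both were above. Since such pieces can share reads, their separate values are uncertain.

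The 3 members whose level was over 5 times that of 0 h at every later time, TR21161|c85_g3, TR47069|c1_g1 and TR79494|c1_g1 (grouped after their values were seen, among members with a mean level of at least 10), summed to 125, 1589, 1461 and 1410 at 0, 12, 24 and 48 h. The other 46 summed to 574, 725, 816 and 870. Among them, TR81194|c1_g2 and TR47069|c1_g2, with mean levels under 10, were also over 5 times their level of 0 h at every later time. Within their own enzymes, these 3 members made up 95.8%, 79.7% and 90.6% of the summed level at 12 h, against 3.30%, 42.2% and 72.1% of the summed level at 0 h. Since the 3 were chosen for their differences, their larger shares at 12 h follow in part from that choice. Such sums and shares take the deposited levels as comparable between genes. Of the 49 members, 41 carry a chloroplast form in their name and 30 have a monkeyflower protein, from the same plant order, as best TrEMBL hit, of 14 species codes in all.

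Genes on either side of the pathway were set beside it by name lists. The lists of PEP and erythrose 4-phosphate supply (48 genes), branched-chain amino acid synthesis (29) and histidine synthesis (10) had 9, 7 and 1 genes higher at 12 h, and 9, 3 and 2 lower, with medians of 0.32, 0.33 and 0.19, beside 15.0% higher and 17.7% lower of all genes. At 24 h the 3 lists had 11, 7 and 1 higher and 8, 4 and 1 lower, beside 13.4% and 16.9% of all genes. At 48 h they had 7, 4 and 1 higher and 7, 5 and 2 lower, beside 12.2% and 19.6%. Of 19 genes listed for the use of phenylalanine or tyrosine, 11, 12 and 10 were higher at 12, 24 and 48 h and 2, 1 and 1 lower. Their medians were 1.16, 1.25 and 1.34. This list also holds hits to later steps, which act on 4-hydroxyphenylpyruvate or homogentisate and not on the amino acids themselves. Several of its genes share an assembly component and can be pieces of 1 gene, so the counts need not be of separate genes. Some were also at low levels. The homogentisate dioxygenase hits TR71206|c0_g2, TR71206|c0_g3 and TR71206|c0_g4 were at 0.298, 0 and 0.284 at 0 h, and at 6.51, 6.25 and 6.93 at 12 h. Of 12 genes listed for the use of tryptophan, 3, 5 and 4 were higher and 2, 1 and 1 lower. They include YUCCA hits, which act on indole-3-pyruvate. Both lists read against the same shares of all genes, 15.0%, 13.4% and 12.2% higher and 17.7%, 16.9% and 19.6% lower. Chloroplast transketolase (TR74569|c2_g2), which yields erythrose 4-phosphate in the Calvin cycle, was at 372, 80.5, 171 and 228. The differences between these lists and the shikimate members were not tested.

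**Figure D3:**
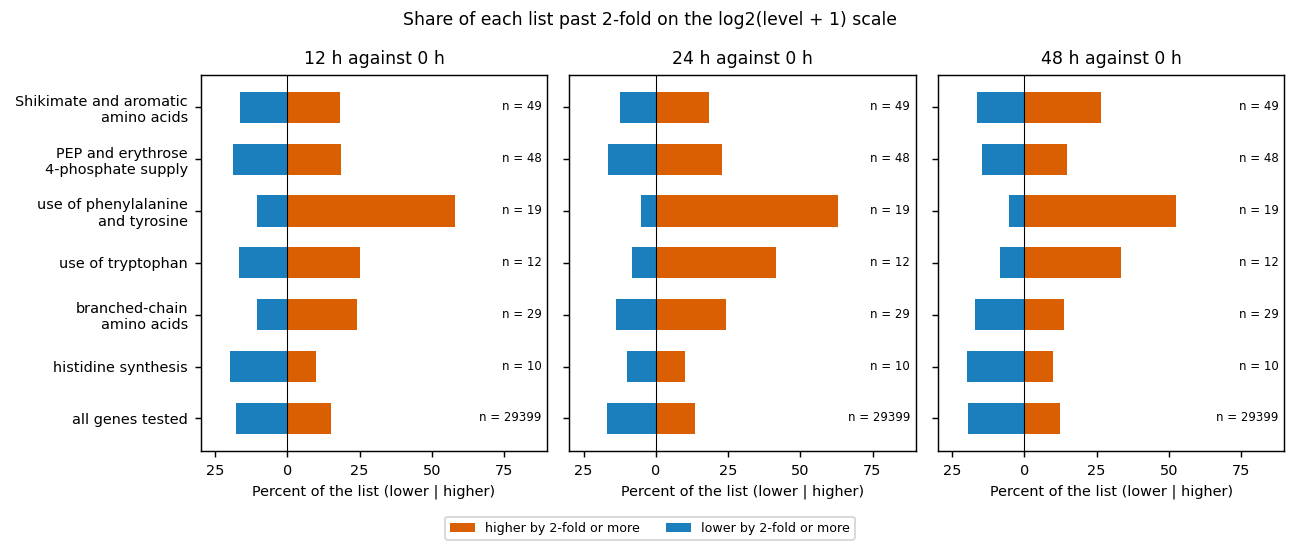
Share of each list that was higher (right of 0) or lower (left of 0) by 2-fold or more at 12, 24 and 48 h against 0 h, on an axis in percent, with the number of genes beside each bar. The shikimate and aromatic amino acid genes were higher in 18.4%, 18.4% and 26.5% of cases. Genes listed for the use of phenylalanine and tyrosine were higher in 57.9%, 63.2% and 52.6%, with later steps and pieces that share an assembly component included.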

How the data were processed

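Leaf mRNA was enriched on beads and sequenced strand-specifically from both fragment ends, per the labels' protocols. The deposited table gives 1 expression signal per assembled gene and time, averaged by the authors over the replicates: every value is a multiple of a step of 0.001 over 3, to within 0.01 of a step. RSEM 1.2.19, Trimmomatic 0.33, FastQC 0.11.3 and CASAVA are listed, with no roles, per the submitters' processing notes. Unit, assembler and reference were not given in the sources used here, and the depth is unknown. The columns sum to between 866243 and 973347. Of the table, 1 line was emptied before use.

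From these values, differences in log2(level + 1) were computed (Python 3.11.15, pandas 2.3.3) for the 29399 genes that reached a level of 1 at some time, and 2-fold was the size rule. The calculation was tested on data simulated from genes with a level of 10 or above at 0 h, so low levels were not covered. The members and lists were chosen with earlier results of these data known. Named by rule were the member with the highest mean level of each enzyme, and, for each comparison with 0 h, the 6 members with the largest positive and 4 with the largest negative difference, from members whose mean level was 10 or above. All other members in the text were named after their values were seen. Alternatives were a pseudocount of 0.1, a minimum level of 10, no minimum, 2 scalings, summed pieces, 1 gene per Swiss-Prot entry, a 3-fold rule and enzyme steps only.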

Additional observations from a re-analysis of the deposited data

How the results depend on the processing

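No paired analysis was possible because the table holds 1 mean per time, and for the same reason no replicate could be left out. The causes of the shifts below were not tested unless fewer genes or a stricter rule account for them by construction. The 9 settings were run on the counts and medians of the 49 members, and no median changed sign. With a minimum level of 10 (30 members), members lower at 12, 24 and 48 h against 0 h numbered 0, 0 and 1. Of all genes with that minimum, 20.2%, 17.3% and 20.6% were lower. The minimum can be met at any time, so it draws on the compared levels themselves. The medians of the members were 0.52, 0.61 and 0.68, and those of all such genes 0.12, 0.099 and -0.050. At 24 h against 12 h that minimum left 0 members higher and 0 lower, beside 14.2% and 11.9% of all such genes. At 48 h against 24 h the median was 0.056 for the members and -0.15 for all such genes. With 1 assembled gene per Swiss-Prot entry (33 members) 2, 1 and 3 were lower, with medians of 0.42, 0.55 and 0.44, then 1 higher and 0 lower at 24 h against 12 h, and a median of 0.086 at 48 h against 24 h. With pieces summed (44 members) 5 and 3 were lower at 12 and 24 h, 0 were lower at 24 h against 12 h, and the medians of the last 2 comparisons were 0.19 and 0.012. With a 3-fold rule 5 and 8 were higher at 12 and 48 h, 2, 1 and 3 lower, and 0 either way at 24 h against 12 h. With the columns scaled to 1 total the medians were 0.13, 0.063 and 0.056 against 0 h and 0.075 at 48 h against 24 h. That scaling moved the median of all genes from 0.063 to -0.064 at 12 h. Median-of-ratios scaling gave 0.24 at 48 h against 0 h and 0.15 at 48 h against 24 h. A pseudocount of 0.1 gave 5 higher and 3 lower at 24 h against 12 h, and 2 and 1 at 48 h against 24 h. The shares of all genes were not computed for the summed pieces, 1 gene per entry, the 3-fold rule or this pseudocount. Those counts therefore stand without a background. With enzyme steps only (46 members) the median at 48 h against 24 h was 0.041. Having no minimum changed none of these values, since all 49 names pass it.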

Other observations

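In each neighbouring list, the gene with the highest mean level and the gene with the largest 12 h difference in size (mean level 10 or above) were named by rule, and all others after their values were seen. Among genes that consume the aromatic amino acids, phenylalanine ammonia-lyase had 8 hits. This enzyme opens the phenylpropanoid route. The hit TR15417|c2_g2, with the highest mean level of its list, was at 163, 84.3, 391 and 705 at 0, 12, 24 and 48 h, below its level of 0 h at 12 h and above it later. The other hit on its component, TR15417|c2_g1, was at 16.7, 4.51, 8.05 and 8.62, lower at 12 h by 1.69 on the log2 scale and under 2-fold later. The hits TR81850|c0_g1, TR19096|c0_g3 and TR38593|c0_g4 were at 44.4, 31.3 and 34.0 at 12 h, against 4.87, 2.64 and 3.10 at 0 h, and TR19096|c0_g1 was at 8.10 against 0.544. TR57073|c0_g1 was at 5.94, 12.4 and 16.6 at 0, 12 and 48 h, and TR71182|c0_g2 at 0.979, 0.962, 3.39 and 6.85, both higher from 24 h on. In the tryptophan list the highest mean level was that of a tryptophan aminotransferase-related hit (TR82848|c2_g3), at 112, 199, 286 and 495. The CYP79 family makes oximes from amino acids. Its phenylalanine N-monooxygenase hit TR45511|c1_g1 was listed at 0 at 0 h and was at 12.3, 22.3 and 34.8 later, and its tryptophan N-monooxygenase hit TR28775|c0_g2 was listed at 0 at 0 h and was at 3.59, 19.6 and 55.1. The aromatic-L-amino-acid decarboxylase hit TR72443|c1_g2 was at 1.66, 37.8, 5.06 and 2.63, with its highest level at 12 h. 4-hydroxyphenylpyruvate dioxygenase (TR14825|c0_g3), which leads tyrosine to plastoquinone and tocopherols, was at 14.0, 36.7, 106 and 109.5.

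In the branched-chain list both parts of the rule chose the same gene. A threonine dehydratase hit (TR32416|c5_g3), the entry to isoleucine and in tomato also an anti-herbivore protein, was at 33.1, 2031, 1434 and 2456 at 0, 12, 24 and 48 h. The branched-chain aminotransferase hit TR76488|c0_g1 (BCAT2) was at 0.412, 44.3, 48.6 and 44.4. In the histidine list they both chose the ATP phosphoribosyltransferase hit TR67774|c1_g1, the entry to histidine, which was at 30.1, 95.6, 111 and 108. The lower hisIE hit TR67044|c2_g1 was at 3.53, 0.701, 0 and 0.348, with a log2 difference of -2.18 at 24 h. In the supply list, glucose-6-phosphate dehydrogenase 2 (TR18930|c0_g1) was at 0.207, 24.1, 9.15 and 12.0. That list also holds 2 hits to an enolase-phosphatase of methionine salvage, of which TR62354|c0_g1 was at 37.7, 7.74, 1.22 and 2.21.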
